A study of Mus musculus with 59 samples.

Results

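The lungs and forestomachs of 5 vehicle-treated mice were compared on 10 arrays, 1 array for each tissue of each mouse, of 59 arrays in the series. The arrays were grouped by their tissue and dose labels: vehicle (dose 0) lung, 5 arrays, and vehicle forestomach, 5 arrays. The animals were male Muta™Mouse of about 16 weeks, a transgenic strain that carries a bacterial lacZ reporter for mutation assays. All 5 received olive oil, the vehicle, by gavage for 28 days and were killed 72 hours later. The other arrays come from the livers of these mice and from mice given a polycyclic aromatic hydrocarbon in the same oil. RNA came from random sections of each frozen tissue, so that all cell types of a section were measured together. In such whole-tissue RNA, fewer cells of a type and less RNA per cell cannot be told apart.

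The mouse forestomach is the first compartment of the stomach and is lined by a keratinizing stratified squamous epithelium. Basal keratinocytes divide on the basement membrane, suprabasal cells change their keratins and desmosomes, and the outermost cells crosslink small proline-rich and late cornified envelope proteins into a barrier. The lung is a branched epithelium in which ciliated and club cells line the airways, flat type I cells and surfactant-secreting type II cells line the alveoli, and a dense capillary bed with resident macrophages surrounds them. Both organs come from foregut endoderm, and both are sites where polycyclic aromatic hydrocarbons are activated and form tumors in rodents.

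Each array set tissue RNA in the Cy5 channel against a universal mouse reference RNA in Cy3. Values below are log2(Cy5/Cy3) after loess normalization, and values of different genes are not levels relative to one another. A value of 0 means equal signal in Cy5 and Cy3. Background was not subtracted, so a probe near background in both channels also reads near 0. Such a value does not give the gene's level relative to the reference. Where a single number is given for a gene, it is the difference lung minus forestomach on the log2 scale. In Cy5, between 44.8% and 49.7% of probes were well above background on the lung arrays and 39.6% to 47.5% on the forestomach arrays. No probe was counted as saturated in Cy5. Arrays correlated at 0.952 to 0.964 within lung, at 0.847 to 0.948 within forestomach and at 0.471 to 0.548 between the tissues. The forestomach arrays of mice 1 and 4, and less so of mouse 3, carried glandular stomach genes that were lowest in mouse 2. Fat genes were high in the forestomachs of mice 3 and 5 and skeletal muscle genes in that of mouse 5. Heart muscle genes were low in the lung of mouse 3 against the other 4 lungs. Each slide held vehicle arrays of 1 tissue, with 3 slides for each tissue, so the slides are nested in the tissues. The p-values set the tissue difference against the spread among the 5 arrays of each tissue. That spread mixes mouse, tissue section and array, and slide differences cannot be told apart from the tissue difference.

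Promoters are shown for leading genes of each tissue so that their start regions can be read side by side: Sftpa1 (surfactant protein A) and Cxcl15 (lungkine), both high in lung, and Krt13 (keratin 13), Ada (adenosine deaminase) and Sprr1a (small proline-rich protein 1A), all high in forestomach. They are RefSeq sequences of build GRCm38.p6, from 250 bases before to 50 bases after the start, 5′ to 3′ on the gene's strand. The positions are chr14:41131538-41131837 (+) for Sftpa1, chr5:90794284-90794583 (+) for Cxcl15, chr11:100121517-100121816 (-) for the first of 2 Krt13 starts, chr2:163750190-163750489 (-) for Ada and chr3:92485832-92486131 (-) for Sprr1a. Capitals mark the letters CACTTNA on either strand, the kind of motif bound by NK2 homeodomain factors such as Nkx2-1.
Sftpa1: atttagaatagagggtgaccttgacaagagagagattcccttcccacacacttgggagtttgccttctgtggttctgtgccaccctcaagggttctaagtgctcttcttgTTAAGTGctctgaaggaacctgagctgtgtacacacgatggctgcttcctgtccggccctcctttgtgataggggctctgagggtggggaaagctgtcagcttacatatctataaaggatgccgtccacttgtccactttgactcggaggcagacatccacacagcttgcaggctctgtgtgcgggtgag
Cxcl15: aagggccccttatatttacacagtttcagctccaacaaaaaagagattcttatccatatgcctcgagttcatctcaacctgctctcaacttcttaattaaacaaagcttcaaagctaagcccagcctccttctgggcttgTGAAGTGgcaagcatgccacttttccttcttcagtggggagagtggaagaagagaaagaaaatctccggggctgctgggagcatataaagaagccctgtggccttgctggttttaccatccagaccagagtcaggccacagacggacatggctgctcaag
Krt13: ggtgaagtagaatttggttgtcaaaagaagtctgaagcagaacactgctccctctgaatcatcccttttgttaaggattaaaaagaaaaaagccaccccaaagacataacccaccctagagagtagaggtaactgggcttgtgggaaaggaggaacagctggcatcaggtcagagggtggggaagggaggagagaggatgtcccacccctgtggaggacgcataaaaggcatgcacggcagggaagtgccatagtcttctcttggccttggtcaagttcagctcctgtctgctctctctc
Ada: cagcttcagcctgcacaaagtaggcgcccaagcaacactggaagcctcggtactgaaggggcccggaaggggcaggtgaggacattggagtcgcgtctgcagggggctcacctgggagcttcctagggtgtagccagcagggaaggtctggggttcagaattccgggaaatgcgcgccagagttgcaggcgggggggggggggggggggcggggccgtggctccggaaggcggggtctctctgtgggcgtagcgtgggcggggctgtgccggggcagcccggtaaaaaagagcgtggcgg
Sprr1a: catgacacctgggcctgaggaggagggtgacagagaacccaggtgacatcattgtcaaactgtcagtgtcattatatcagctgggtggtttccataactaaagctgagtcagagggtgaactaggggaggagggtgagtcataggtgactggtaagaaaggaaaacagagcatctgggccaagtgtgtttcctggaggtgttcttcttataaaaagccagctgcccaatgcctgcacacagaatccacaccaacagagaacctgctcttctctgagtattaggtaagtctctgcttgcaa
The other markers, Sftpc and Krt4, are named only. CACTTNA was found in the promoters of 9 of 61 named genes higher in lung (14.8%) and 4 of 54 named genes higher in forestomach (7.41%). Among all 27025 genes with promoters of the same length the share was 13.1%. A gene with several starts was counted if any of its promoters held a match. AACCNGTT, a grainyhead-type motif searched on both strands, was in 2 of 61 (3.28%) and 2 of 54 (3.7%), and in 2.35% of the 27025 genes. The promoters shown are examples and do not stand for these shares: both lung promoters shown hold CACTTNA. Sftpb, Ager, Inmt, Clic5 and Dynlrb2, also leading lung genes, hold no match to it, whereas Lyz1 holds 1. A match describes letters in a window only.

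Of 37163 genes and unnamed transcripts tested, 4652 (12.5%) were at least 1.5-fold higher in lung and 4169 (11.2%) at least 1.5-fold higher in forestomach at an adjusted p of 0.05 or less (limma's moderated test, Benjamini-Hochberg over 55681 probes). A gene was judged by its brightest probe, and "called" below means past both thresholds. At 4-fold, 943 (2.54%) were higher in lung and 814 (2.19%) in forestomach. The 5 lung values lay wholly above or below the 5 forestomach values for 31.3% of genes. The median difference over all genes was -0.01, and single genes ranged from -8.98 to 8.51.

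The 3 marker genes followed the tissue labels. Sftpc, the surfactant protein made by alveolar type II cells, measured 7.21, 7.04, 7.05, 6.98 and 7.33 in the lungs of mice 1 to 5. In the forestomachs it measured 0.34, 0.02, 0.02, 0.03 and -0.13, not well above background on any array. Krt4, a keratin of suprabasal squamous cells, measured 0.16, 0.21, 0.02, -0.10 and -0.08 in lung, on no array well above background, and 6.50, 6.93, 6.97, 6.43 and 6.93 in forestomach. Its partner Krt13 was just as separated, with no lung value near any forestomach value. Krt13 measured -1.82, -1.74, -1.36, -1.27 and -2.07 in lung and 5.04, 5.22, 5.33, 5.03 and 4.98 in forestomach, a difference of -6.77 ± 0.14 (SE, n = 5 mice; adjusted p 1.1e-12). For a gene dim on all 5 arrays of a tissue, "at least" below gives the smaller of 2 folds, a choice made after seeing the data. Both are estimates after loess normalization, so the smaller is not a proven lower limit. The first is the fold of the fitted difference. The second is the bright tissue's mean Cy5 signal against, in the dim tissue, the higher of the gene's own signal and the lowest signal among probes well above background, which compares Cy5 between arrays and, without dye swaps, is open to dye bias. The 2 can be far apart: for Sftpc they were 134 and 8063. The Cy3 signal of Sftpc, from the same reference RNA on every array, was 5942 to 7665 units on the lung arrays and 40 to 54 on the forestomach arrays, so it moved with Cy5, and the cause was not tested. For Lce1a1 the Cy3 signal was 35 to 41.5 on lung and 2066 to 5875.5 on forestomach arrays. Over the genes called at 4-fold the median Cy3 difference was 0.15 toward lung and -0.25 toward forestomach on the log2 scale, against -0.05 over all genes. Sftpc was thus at least 134-fold higher in lung (difference 7.06, adjusted p 8.4e-14) and Krt4 at least 105-fold higher in forestomach (difference -6.71, adjusted p 3.4e-13).

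**Figure D1:**
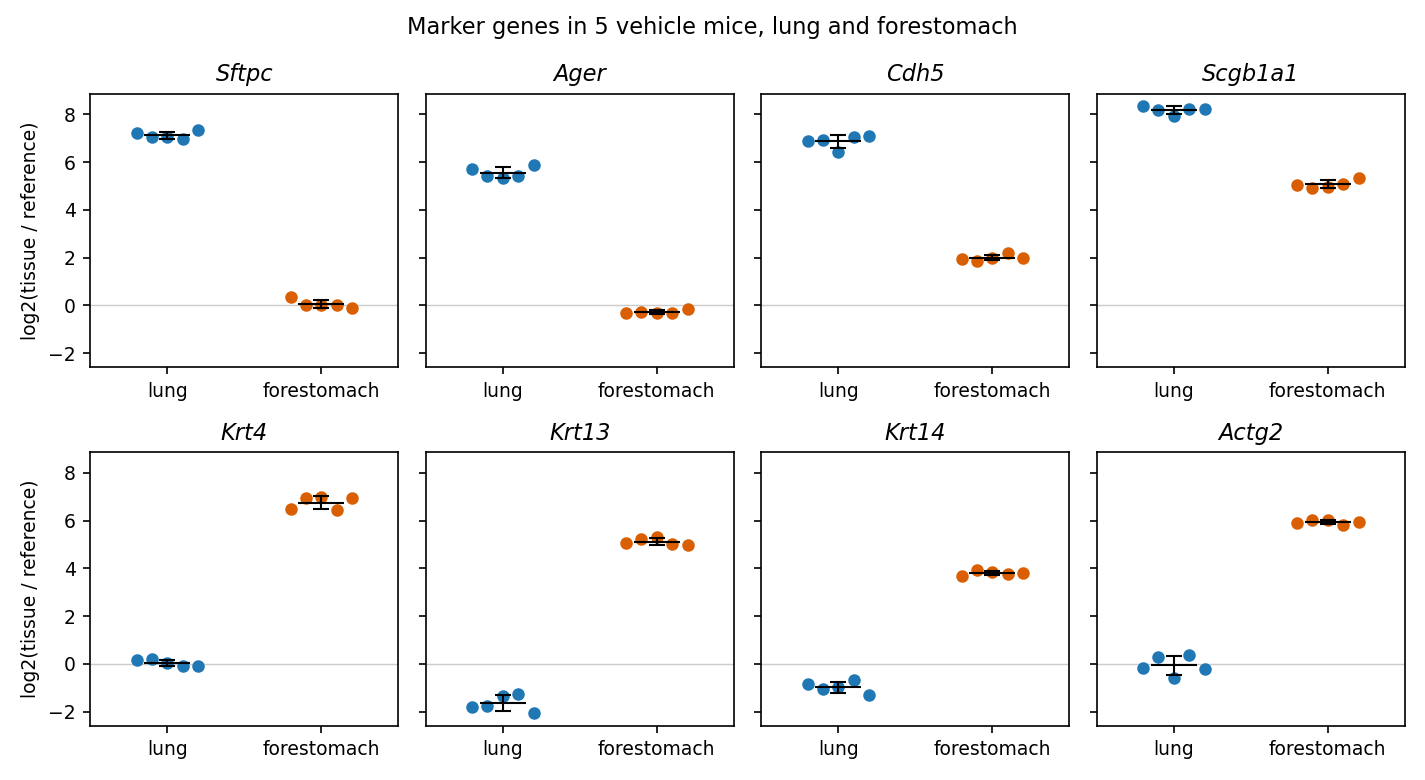
Values of 8 marker genes as log2(tissue/reference) for the 5 lungs (blue) and 5 forestomachs (orange) of the vehicle mice, in mouse order from left to right; bars show mean ± SD. Sftpc, Ager, Cdh5 and Scgb1a1 lie higher in every lung, and Krt4, Krt13, Krt14 and Actg2 in every forestomach; Scgb1a1 stays at 4.91 to 5.33 in forestomach.

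All 11 genes listed for alveolar type II cells were higher in lung, with a median difference of 4.62, against 12.5% of all genes and a median of -0.01. Sftpb, which the cell needs to spread surfactant, measured 5.98 to 6.72 in lung and -0.29 to 0.19 in forestomach, at least 74.7-fold higher (adjusted p 2.1e-12), and its 2 probes differed by 6.22 and 3.56. Sftpa1, a surfactant collectin, was at least 73.9-fold higher in lung. Sftpd, the other collectin, measured 7.34, 7.34, 7.18, 7.50 and 7.79 in lung but 2.58, -0.15, 0.60, 1.27 and -0.07 in forestomach. Its 2 highest forestomach values were those of mice 1 and 4, the arrays with the most glandular stomach signal, and the part of that tissue in them was not tested. Napsa, a protease of surfactant processing, was at least 59.4-fold higher in lung, and Slc34a2, the type II phosphate carrier, at least 24.5-fold.

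Of 11 type I cell genes measured, 8 were higher in lung and none in forestomach (median 3.07). Ager, the receptor for advanced glycation end products and a defining type I gene, measured 5.70, 5.43, 5.33, 5.42 and 5.88 in lung against -0.34 to -0.14 in forestomach, where no array was well above background. It was at least 57.1-fold higher in lung (adjusted p 3.3e-13). Aqp5, a water channel, measured 5.38 to 5.73 in lung and -2.10 to -0.06 in forestomach, a 112-fold difference on its brightest probe (6.81 ± 0.33, adjusted p 3.2e-09) and 3.88 on its second. Clic5, an intracellular chloride channel protein, differed by 5.98 ± 0.27 and Akap5, an anchoring protein for protein kinase A, by 4.31 ± 0.18. The 3 members that were not called were Hopx (0.43), Clic3 (-0.07) and Scnn1g (0.13). Hopx was bright in both tissues, at 4.49 to 5.01 in lung and 4.06 to 4.67 in forestomach, as was Clic3, whereas no array measured Scnn1g well above background.

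Among 10 airway secretory genes, 8 were higher in lung (median 2.21). Scgb1a1, the club cell secretory protein, measured 8.35, 8.19, 7.93, 8.21 and 8.23 in lung and 5.04, 4.91, 4.94, 5.10 and 5.33 in forestomach, well above background in both, a difference of 3.12 ± 0.10 or 8.68-fold (adjusted p 7e-11). Cyp2f2, the club cell P450, was also bright in forestomach, at 5.49 to 5.73 against 6.23 to 7.09 in lung. Both probes were therefore well above background in every forestomach, unlike those of the surfactant genes Sftpa1, Sftpb and Sftpc. Whether other transcripts add to the forestomach signal of the Scgb1a1 and Cyp2f2 probes could not be checked. The genes of larger airways varied between lungs. Bpifa1, an antimicrobial protein of upper airways, measured 5.37, 6.35, 0.22, 0.82 and 1.64 in lung, high in mice 1 and 2 only, and was at background in every forestomach. Its call (2.87 ± 1.00, adjusted p 0.042) was lost without the lung of mouse 1 or 2 or any 1 forestomach, at adjusted p 0.0584 to 0.109. Scgb3a1 (5.08, 5.51, 1.00, 3.08 and 1.95) and the mucin gene Muc5b (3.96, 4.28, 1.30, 1.60 and 0.94) showed the same 2 lungs on top. Agr2 and Bpifb1, secretory genes that the glandular stomach also uses, were not called, with forestomach values of -0.08 to 6.16 for Agr2 and -0.19 to 5.16 for Bpifb1.

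Cilia genes were nearly uniform: 13 of 14 were higher in lung (median 2.31), and Dnah9, not well above background on any array, was the 1 not called. Dynlrb2, a dynein light chain, measured 4.89 to 5.56 in lung and 0.01 to 0.24 in forestomach, at least 34.4-fold higher. Foxj1, the factor that switches on the motile cilium program, measured 4.11, 3.71, 3.09, 3.68 and 3.64 in lung and -0.42 to -0.05 in forestomach, at least 14.6-fold higher (adjusted p 4.4e-10). Ccdc153, Tekt1 and the axonemal dynein Dnah5 were at least 46.7-fold, 17.6-fold and 12.4-fold higher. In each of these 5 genes the lowest lung value was that of mouse 3.

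Of 12 transcription factors of lung development, 11 were higher in lung (median 2.76) and 1, Foxp2, was higher in forestomach. Nkx2-1, the factor that sets lung identity in the foregut, measured 4.10, 4.26, 3.98, 4.20 and 4.18 in lung and -0.08 to 0.00 in forestomach, at least 18.2-fold higher (adjusted p 2.3e-13). Tbx4 and Tbx5, T-box factors of lung mesenchyme, differed by 5.30 and 3.13. Etv5, a target of FGF signaling in type II cells, differed by 4.13. Foxa2, Foxa1 and Gata6, endodermal factors shared with the stomach, were higher in lung, but were highest among forestomachs in those of mice 1 and 4. Foxa2 measured 4.25, -0.59, -0.22, 2.79 and -0.57 in forestomach against 5.63 to 5.97 in lung. Foxp2 measured 0.01 to 0.47 in lung, not well above background, and 1.06, 1.06, 1.60, 1.00 and 1.13 in forestomach, at least 1.69-fold higher there.

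Of 12 lung fibroblast genes, 11 were higher in lung (median 2.03), among them Inmt, an amine N-methyltransferase, at 5.25 to 5.77 against -1.67 to 0.74 (6.34 ± 0.35). Itga8, an integrin of contractile fibroblasts, measured 6.24 to 7.27 in lung and 2.92 to 4.82 in forestomach, and Fgfr4 differed by 3.44 and 1.29 on its 2 probes. Eln (elastin) was not called, at 1.54 to 2.39 in lung and 1.66 to 2.58 in forestomach. Of 24 endothelial genes, 23 were higher in lung (median 2.86). Cdh5, the cadherin of endothelial junctions, measured 6.87, 6.94, 6.41, 7.03 and 7.10 in lung and 1.96, 1.87, 1.99, 2.18 and 1.97 in forestomach, a 29.4-fold difference. Gpihbp1, which carries lipoprotein lipase across capillaries, differed by 4.90 ± 0.14, and Icam2 and Esm1 by 4.74 and 4.41. Kdr, the main VEGF receptor, was not called on its brightest probe (-0.42), while its other probe differed by 4.01.

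Immune genes were also mostly higher in lung. Of 15 macrophage and myeloid genes, 14 were higher in lung (median 2.00) and Pparg, a lipid-sensing nuclear receptor, was higher in forestomach (-1.12), with every forestomach value above every lung value. Chil3, a chitinase-like protein of alveolar macrophages, measured 1.10, 1.47, 2.43, 1.08 and 4.28 in lung and -4.45 to -2.42 in forestomach. Marco, a scavenger receptor that marks these cells, measured 3.32 to 5.47 against -0.41 to 0.82 (4.28 ± 0.37). Ear1 and Ear2, eosinophil-associated ribonucleases whose sequences are close enough that their probes may share signal, differed by 5.33 and 4.64. Of 15 lymphocyte genes, 11 were higher in lung (median 1.61), led by Gzma, a granzyme of killer cells, at 4.70 to 6.71 against -0.57 to -0.38. The B cell receptor chain gene Cd79b differed by 4.43 and the T cell receptor chain gene Cd3d was at least 6.52-fold higher, whereas Cd4 (-0.32) and Cd8a (0.43) were not called. Of 10 class II antigen presentation genes, 9 were higher in lung (median 2.31), with Cd74, the invariant chain, at 3.07 to 3.85 against -0.55 to 0.45. Of 5 red blood cell genes, 4 were also higher in lung, with a mean over the list of 3.67 to 4.02 in lung and 1.75 to 2.10 in forestomach. The part of blood held in the lung samples was not tested.

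Among genes well above background on all 10 arrays, the 8 with the largest differences toward lung were Inmt, Hp, Clic5, Epas1, Chil3, Limch1, Lyz1 and 1110017D15Rik. Epas1, the hypoxia-inducible factor of endothelium and type II cells, measured 8.51, 8.45, 8.48, 8.44 and 9.04 in lung and 2.94, 2.87, 2.75, 2.70 and 3.19 in forestomach, a 51.8-fold difference (5.69 ± 0.13). Its 3 probes ranged from 0.01 to 5.69, so the size rests on which probe is read. Hp, which encodes the hemoglobin scavenger haptoglobin, measured 6.00 to 6.39 in lung but -1.27, -0.92, 1.02, -0.89 and 2.48 in forestomach, highest in the 2 arrays with the most fat signal. Limch1, an actomyosin regulator, differed by 5.56 and 5.61 on 2 probes. Lyz1, a lysozyme with the near-identical neighbor Lyz2, differed by 5.46. For Cxcl15, a chemokine of lung epithelium, every lung value (5.45 to 5.82) lay far above every forestomach value (-0.12 to 0.00), at least 52.8-fold.

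**Figure D2:**
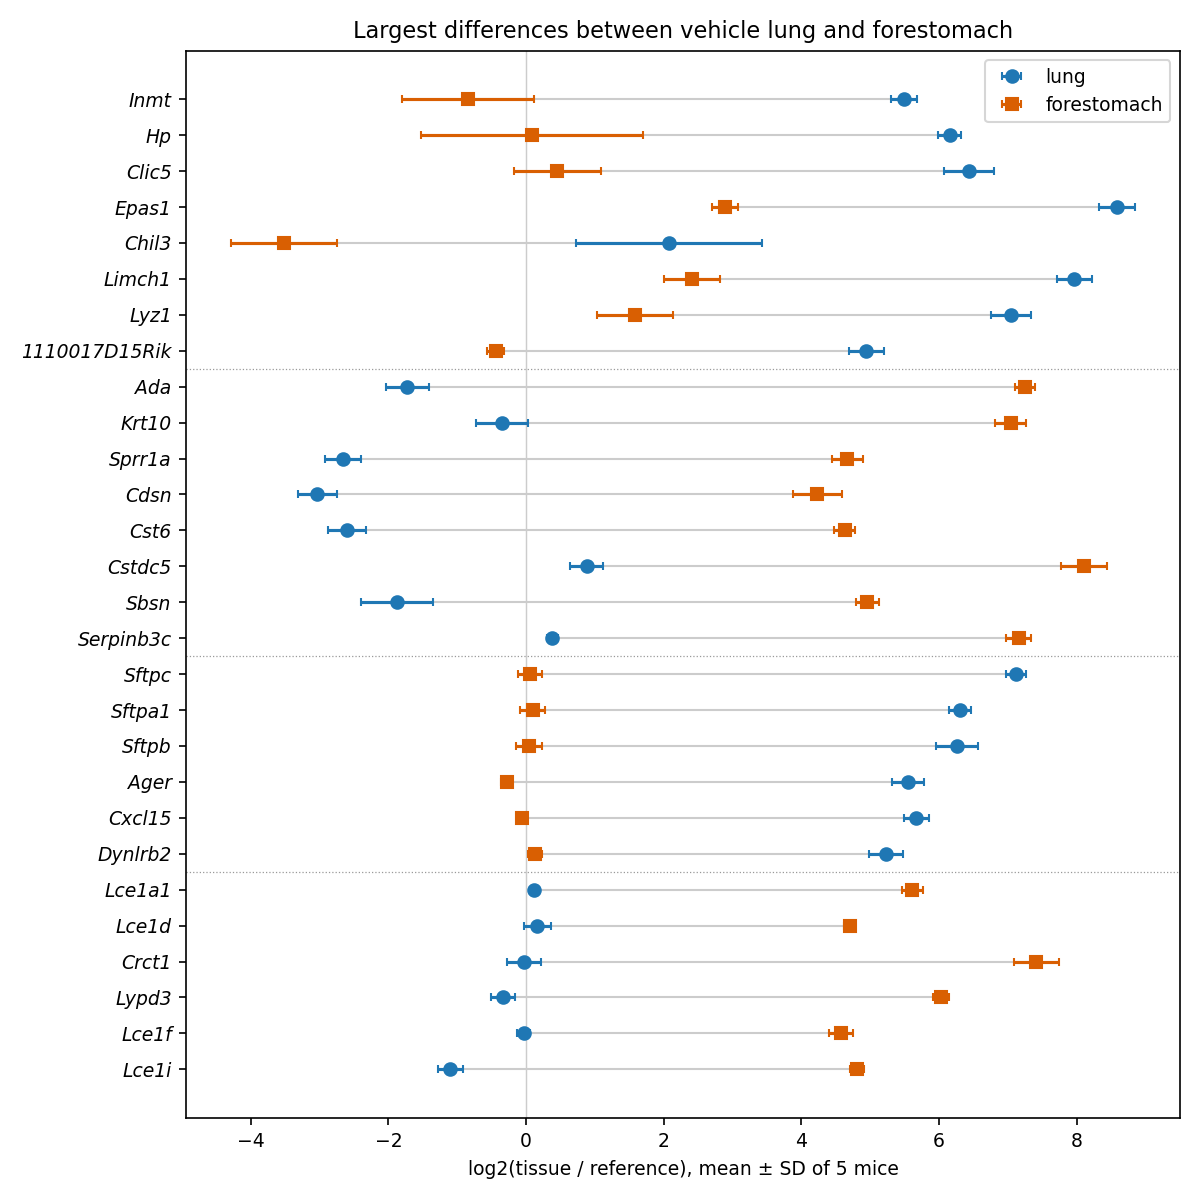
Mean ± SD of log2(tissue/reference) in lung (circles) and forestomach (squares), 5 mice each, for the genes with the largest differences: from the top, 8 toward lung and 8 toward forestomach that were well above background on all arrays, then 6 toward lung and 6 toward forestomach that were at background in the other tissue, chosen by their Cy5 signal. The bars of the tissues do not overlap for any gene, and the widest are those of Hp in forestomach and Chil3 in lung.

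On the forestomach side the largest difference of all belonged to Ada, the purine salvage enzyme adenosine deaminase, long known to be abundant in upper alimentary epithelium. Ada measured -1.83, -1.94, -1.79, -1.17 and -1.90 in lung and 7.14, 7.32, 7.06, 7.36 and 7.40 in forestomach. For Ada that is a difference of -8.98 ± 0.14, or 505-fold (adjusted p 1.1e-13), with SDs of 0.32 in lung and 0.15 in forestomach. The next largest among genes measured on all arrays were Krt10, Sprr1a, Cdsn, Cst6, Cstdc5, Sbsn and Serpinb3c, at -7.39 to -6.77. Cst6 (-2.96 to -2.36 in lung, 4.40 to 4.80 in forestomach) and Cstdc5, of the stefin family, encode cysteine protease inhibitors of keratinocytes. Cdsn, corneodesmosin, which glues cornified cells together, measured -3.42 to -2.75 in lung and 3.74 to 4.70 in forestomach. Sbsn (suprabasin) differed by -6.84. Serpinb3c, a serpin with near-identical copies beside it, differed by -6.77.

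All 13 keratins of stratified epithelium were higher in forestomach (median -4.71), against 11.2% of all genes. The basal pair Krt5 and Krt14 measured 3.61 to 3.93 and 3.69 to 3.91 in forestomach, and -0.10 to 0.51 and -1.31 to -0.69 in lung. The pair of cornifying layers showed larger differences, with Krt10 at 6.78, 7.31, 7.02, 6.88 and 7.22 in forestomach and -0.47, -0.40, -0.53, 0.31 and -0.65 in lung, a 168-fold difference. Krt1, its partner, measured 7.06 to 7.92 in forestomach and -0.28 to 0.58 in lung. For both, the lung of mouse 4 was the highest. Krt6b was at least 106-fold higher in forestomach (6.66, 7.21, 6.95, 6.78 and 5.90). The keratins of activated or wounded epithelium, Krt6a, Krt16 and Krt17, were lowest in the forestomach of mouse 5, Krt6a at 3.04, 2.35, 2.42, 2.97 and 0.39. Keratins of simple epithelium behaved otherwise: of 6, Krt7 was higher in lung (3.58 to 4.07 against -0.49 to 1.39), Krt23 and Krt20 were higher in forestomach, and Krt8, Krt18 and Krt19 were not called. Krt19 measured 4.35, -2.75, -0.05, 3.11 and -0.56 in forestomach, following the glandular stomach signal. Without the forestomachs of mice 1 and 4, 4 of the 6 were higher in lung, an alternative chosen after seeing the data.

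Of 24 cornified envelope genes, 23 were higher in forestomach (median -5.13), and 22 of them at least 4-fold. Sprr1a, a crosslinked precursor, measured -2.88, -2.71, -2.40, -2.37 and -2.94 in lung and 4.67, 4.87, 4.31, 4.85 and 4.64 in forestomach. Lor, loricrin, the bulk protein of the envelope, measured 6.69 to 7.32 in forestomach and 0.83, 1.04, 0.75, 2.65 and 1.06 in lung, highest in mouse 4. Spink5, an inhibitor of the kallikreins that shed cornified cells, was at least 217-fold higher in forestomach, and Rptn (repetin) at least 83.2-fold. The late cornified envelope genes Lce1a1, Lce1d, Lce1f and Lce1i, at background in lung, were higher by at least 45.2-fold, 23.2-fold, 24.4-fold and 60.1-fold. These neighbors are near-identical and their probes may share signal. Lce1a1 measured 5.43 to 5.84 in forestomach and 0.06 to 0.18 in lung. Crct1, a cysteine-rich protein of the same gene cluster, was at least 174-fold higher, and Lypd3, a surface protein of suprabasal keratinocytes, at least 82.5-fold. Tgm3, a transglutaminase, was the 1 gene not called: its brightest probe differed by 0.15 and its other probe by -3.81.

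Desmosomes hold keratinocytes together, and 10 of 13 of their genes were higher in forestomach (median -3.29). Perp, a p63 target in desmosomes, measured 6.00, 6.93, 6.04, 6.44 and 6.51 in forestomach and -0.20 to 0.33 in lung, a 78.8-fold difference. Pkp1 and Dsc1, the plakophilin and desmocollin of upper layers, were at least 77.2-fold and 32.8-fold higher. Dsp, desmoplakin, which every desmosome needs, differed by -3.85 and was itself well above background in lung (2.69 to 3.36). Pkp2, the plakophilin of simple epithelium and heart, went the other way, at 0.80 to 1.01 in lung and -2.23 to -0.14 in forestomach.

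Of 16 transcription factors of squamous epithelium, 12 were higher in forestomach and none in lung (median -2.34). Grhl3, a grainyhead factor of barrier formation, measured 6.18, 6.71, 6.04, 6.49 and 6.34 in forestomach and 0.49, 0.52, 0.34, 0.72 and 0.30 in lung, a 58.9-fold difference. Pitx1, a paired-type homeobox factor, was at least 54.2-fold higher in forestomach, and Grhl1 and Ovol1 differed by -4.35 and -3.86. Barx1, a stomach mesenchyme factor, measured 2.91 to 3.44 against 0.00 to 0.12. Trp63, the gene of p63, was not called on its brightest probe (0.00), whereas its other probe differed by -6.27, so its result depends on the probe. Klf4 and Klf5 differed by -2.30 and -1.77, and Grhl2 (-0.43) was bright in both tissues, 2.35 to 3.14 in lung and 3.21 to 3.52 in forestomach.

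A list of cytokines and antimicrobial proteins of squamous epithelium, drawn up as forestomach genes, leaned to forestomach. It does not stand for all such proteins. Of 17 measured, 10 were higher in forestomach (58.8%, against 11.2% of all genes), with a list median of -3.22. In lung 3 were higher (17.6%, against 12.5% of all genes). The IL-36 family genes of keratinocytes were near background in lung: Il1f6 (IL-36α) measured 6.53 to 7.15 in forestomach, at least 116-fold higher, and Il1f9 (IL-36γ) 4.67 to 6.05, at least 33.4-fold. Defb1 and Defb14, beta-defensins, were at least 16.6-fold and 10.3-fold higher in forestomach, and the inflammasome cytokine Il18 differed by -3.61. Serpinb3a was at least 77.7-fold higher, with the caution given for its copies, and Ly6g6c differed by -5.74. The 3 genes higher in lung were S100a8, S100a9 and Lcn2, which neutrophils carry. S100a8 measured 1.68, 2.53, 3.60, 3.06 and 2.61 in lung and -2.32 to -1.38 in forestomach.

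Genes listed for smooth muscle, and most of those listed for enteric nerve and pacemaker cells, were higher in forestomach. All 12 smooth muscle genes were higher in forestomach (median -2.69). Actg2, the actin of visceral smooth muscle, measured 5.91, 6.03, 6.04, 5.83 and 5.92 in forestomach and -0.59 to 0.39 in lung, a 64.3-fold difference. Tagln, Des and Acta2 differed by -4.16, -3.97 and -3.77, and Myh11, the smooth muscle myosin, was bright in both, at 5.55 to 6.22 against 2.77 to 3.84. Of 16 genes of enteric neurons, glia and pacemaker cells, 11 were higher in forestomach (68.8%, against 11.2% of all genes), with a median of -1.12. In lung 3 were higher (18.8%, against 12.5% of all genes). The neuropeptide genes Tac1 and Vip measured 4.08 to 5.81 and 2.66 to 4.03 in forestomach and were at background in lung. Kit, the receptor of pacemaker cells and mast cells, was instead higher in lung, at 5.54 to 6.44 against 3.00 to 3.92, as were Stmn2 (1.53) and Snap25 (0.67).

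**Figure D3:**
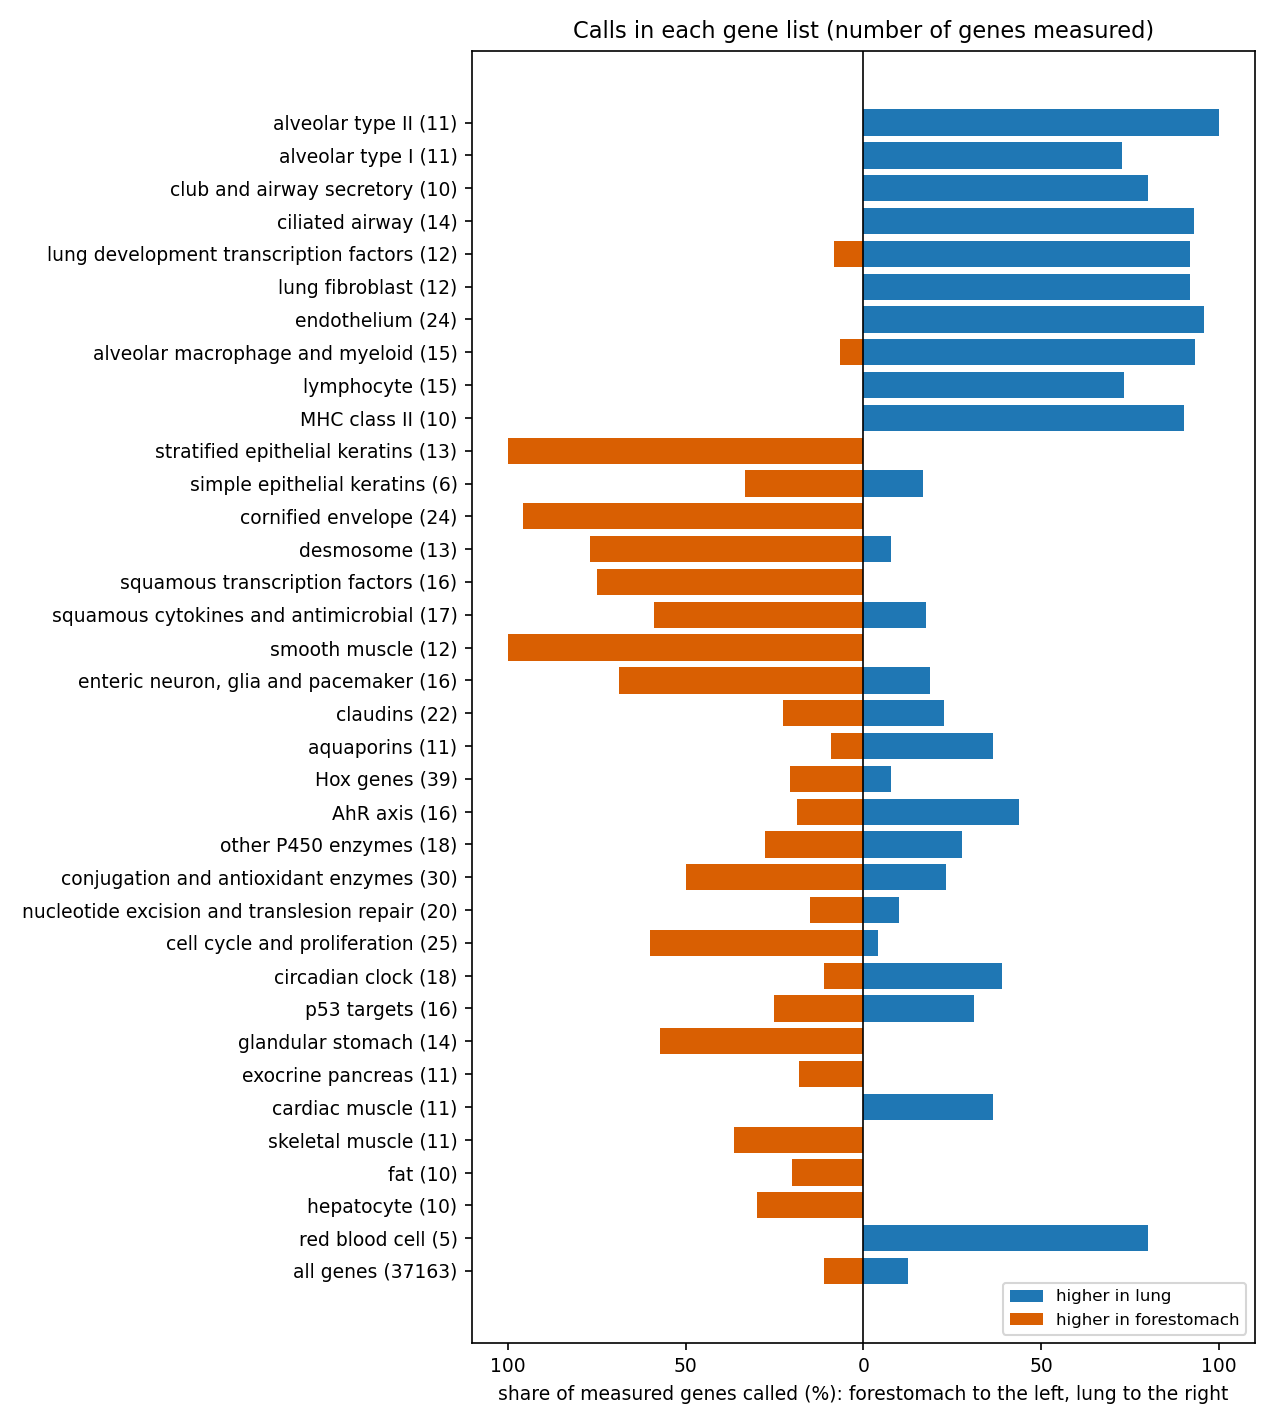
Share of measured genes in each list that were called higher in lung (blue, right) or in forestomach (orange, left), with the number measured in parentheses; the bottom bar is all 37163 genes, at 12.5% and 11.2%. The lung lists reach 72.7% to 100% on the right, and the stratified keratin and smooth muscle lists reach 100% on the left, while the repair list, at 10% and 15%, lies near the bottom bar.

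Members of the same gene family differed between the tissues in opposite directions. Among 11 aquaporins, Aqp5 and Aqp3 went opposite ways: Aqp3, a water and glycerol channel of keratinocytes, measured 6.46, 6.85, 6.35, 6.58 and 6.63 in forestomach and -0.10 to 0.32 in lung, an 88.7-fold difference. Aqp1, of capillaries, was higher in lung (2.92 to 3.78 against -0.74 to 0.46), as were Aqp2 and Aqp4, and 6 aquaporins were not called. The 4 aquaporins higher in lung were 36.4% of those measured, against 12.5% of all genes. The 1 higher in forestomach was 9.09%, near the 11.2% of all genes. No array measured 3 of the 11 well above background. Among 22 claudins, which seal tight junctions, 5 (22.7%) were higher in each tissue, against 12.5% and 11.2% of all genes. Lung had more Cldn3 (4.60), Cldn5 (3.97), Cldn7 (3.71), Cldn10 (3.53) and Cldn8 (1.34), and forestomach more Cldn22 (-2.30), Cldn1 (-1.58), Cldn23 (-1.10), Cldn17 (-0.85) and Cldn4 (-0.81). Cldn18, which has lung and stomach forms, was not called (1.40, adjusted p 0.053): its forestomach values of 2.99, 0.05, 0.01, 1.92 and 0.15 were high in mice 1 and 4.

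Of 39 Hox genes, which record position along the body, 8 were higher in forestomach (20.5%, against 11.2% of all genes) and 3 in lung (7.69%, against 12.5%), and 28 were not called. Hoxc6, Hoxc4, Hoxc5 and Hoxc8 were at background in every lung. Hoxc5 measured 3.49, 4.11, 3.84, 4.04 and 4.03 in forestomach and -0.70 to -0.14 in lung, at least 18.5-fold higher, and Hoxc6 was at least 23.1-fold higher. Hoxb6, Hoxb7, Hoxb8 and Hoxd9 were also higher in forestomach, with differences of -1.99 to -0.80. Hoxa5 (1.91 to 2.22 in lung, 0.12 to 0.91 in forestomach), Hoxb5 and Hoxb4 were higher in lung. Hoxc4 and Hoxc5, of the same paralog groups, were among those higher in forestomach. Genes of groups 9 to 13 other than Hoxd9 were not called.

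Because the series tests exposure to a polycyclic aromatic hydrocarbon, the genes that activate and clear such compounds were compared in the unexposed organs. Of 16 genes of the aryl hydrocarbon receptor (AhR) axis, 7 were higher in lung (43.8%) and 3 in forestomach (18.8%), against 12.5% and 11.2% of all genes (median 0.54). Ahr, the receptor, measured 1.45, 1.93, 1.59, 1.82 and 1.54 in lung and -0.06, -0.32, -0.44, -0.35 and -0.56 in forestomach, 4.04-fold higher in lung on its brightest probe and 0.23 on its other. Its partner Arnt and its target Tiparp were higher in lung by 0.92 and 1.00, Arnt with a second probe at -0.30. The repressor Ahrr (-0.75, second probe -0.02), Akr1b8, an aldo-keto reductase (-2.34), and Cyp1b1 (-1.12) were higher in forestomach. Cyp1a1, the main P450 that activates these hydrocarbons, was not called (1.88, adjusted p 0.23): it measured 2.97, 8.39, 2.06, 2.81 and 2.64 in lung and 1.85, 4.39, 1.15, 0.36 and 1.73 in forestomach. Mouse 2 had the highest value in both tissues, as it had for Cyp1b1 (0.21 in lung, 0.66 in forestomach), although labelled as vehicle.

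Other P450 genes were split, 5 of 18 (27.8%) higher in each tissue, against 12.5% and 11.2% of all genes. Cyp4b1, a lung P450 that bioactivates furans and amines, measured 7.92, 8.09, 7.73, 7.86 and 8.47 in lung and 2.91 to 3.80 in forestomach, a 26.2-fold difference, and Cyp2b10 differed by 3.05. Cyp4f39, which makes barrier lipids, and Cyp2j6 were higher in forestomach (-2.79 and -1.86). Conjugation and antioxidant genes leaned to forestomach: 15 of 30 were higher there (50%, against 11.2% of all genes), with a median of -0.62. In lung 7 were higher (23.3%, against 12.5% of all genes). Nqo1, quinone reductase, measured 3.32, 1.85, 1.82, 2.56 and 2.05 in forestomach and -1.47 to -0.84 in lung, an 11.4-fold difference, and Hmox1, heme oxygenase, differed by -2.54. Sult2b1, the cholesterol sulfotransferase of keratinocytes, differed by -5.01. Gsta1 and Gsta2, near-identical glutathione transferases, differed by -5.52 and -4.88, and Ugt2b34 by -5.05. These 3 and Nqo1 were highest in the forestomachs of mice 1 and 4, Ugt2b34 at 6.38, 2.88, 3.34, 5.41 and 3.57, where glandular stomach genes were also highest. The lowest forestomach value of each lay above every lung value, and the part of glandular stomach tissue in these differences was not tested. Gsta3 (2.70), Aldh1a1 (2.07), Sult1a1 (1.97) and Gpx3 (1.84) were higher in lung.

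Of 20 genes of nucleotide excision repair and translesion synthesis, 2 were higher in lung (10%) and 3 in forestomach (15%), shares near the 12.5% and 11.2% of all genes (median -0.01). Xpc, which recognizes bulky lesions, measured 0.92 to 1.36 in lung and -0.43 to 0.04 in forestomach, and Ddb1 differed by 0.82. Rad23b, the partner of XPC, went the other way (-1.15, second probe -0.27), as did Ercc1 (-0.89) and Polh (-0.63). Of 16 p53 targets, 5 were higher in lung (31.2%) and 4 in forestomach (25%), against 12.5% and 11.2% of all genes. Cdkn1a, the p21 cell cycle inhibitor, measured 1.04, 1.41, 0.39, 1.02 and 0.87 in forestomach and at most -0.21 in lung on its brightest probe, and differed by -0.07 on its other. Fas (2.21) and Bbc3 (1.94) were higher in lung, and Sesn2 (-1.75) and Zmat3 (-0.94) in forestomach.

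Proliferation genes were mostly higher in forestomach, 15 of 25 (60%, against 11.2% of all genes), with 1 (E2f1) higher in lung (median -0.91). Mki67 measured -4.28, -4.41, -4.69, -3.95 and -4.39 in lung and -2.60, -2.53, -2.26, -2.62 and -2.23 in forestomach, a 3.74-fold difference. Birc5, Cdc20 and Rrm2 differed by -2.09, -1.94 and -1.94, while the replication genes Mcm2, Mcm3, Mcm4, Mcm6, Mcm7 and Pcna were not called. Of 18 clock genes, 7 were higher in lung (38.9%, against 12.5% of all genes) and 2 in forestomach (11.1%). Tef and Cry2 differed by 1.83 and 1.55, and Clock by -0.99. Dbp measured -0.67, -2.29, -0.32, -0.09 and -0.95 in lung, and mouse 2 was also lowest there for Nr1d1 and Nr1d2, so the clock genes varied between mice as well as between tissues.

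Genes of neighboring tissues differed from mouse to mouse. The mean over 14 glandular stomach genes was 5.43, 0.65, 3.31, 4.81 and 1.78 in the forestomachs of mice 1 to 5 and 0.68 to 1.51 in lung. Atp4b, a subunit of the parietal cell proton pump, measured 6.21, 0.04, 5.14, 5.78 and 3.21, and Muc5ac, the surface mucin, 5.65, 2.45, 3.29, 5.10 and 2.96. The pump gene Atp4a was called (-2.91, adjusted p 0.037), but not without any 1 lung or the forestomach of mouse 1 or 4, at adjusted p 0.0617 to 0.0955. In lung, Tff1 and Gkn2, secreted by surface mucous cells, were high in mouse 4 alone (5.04 and 5.28). Of 11 heart muscle genes, 4 were higher in lung (36.4%, against 12.5% of all genes). Among them Myh6, a heart muscle myosin, measured 5.45, 5.81, 0.40, 5.41 and 5.58 in lung, low in mouse 3 alone. Skeletal muscle genes averaged 3.66 in the forestomach of mouse 5 and 0.49 to 0.73 in the other 4. The fat list averaged 3.82 and 5.09 in the forestomachs of mice 3 and 5, at most 1.63 in the others and 0.72 to 3.26 in lung. Of 11 exocrine pancreas genes 2 (18.2%), Cela1 and Cel, were higher in forestomach, and of 10 hepatocyte genes 3 (30%), against 11.2% of all genes.

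**Figure D4:**
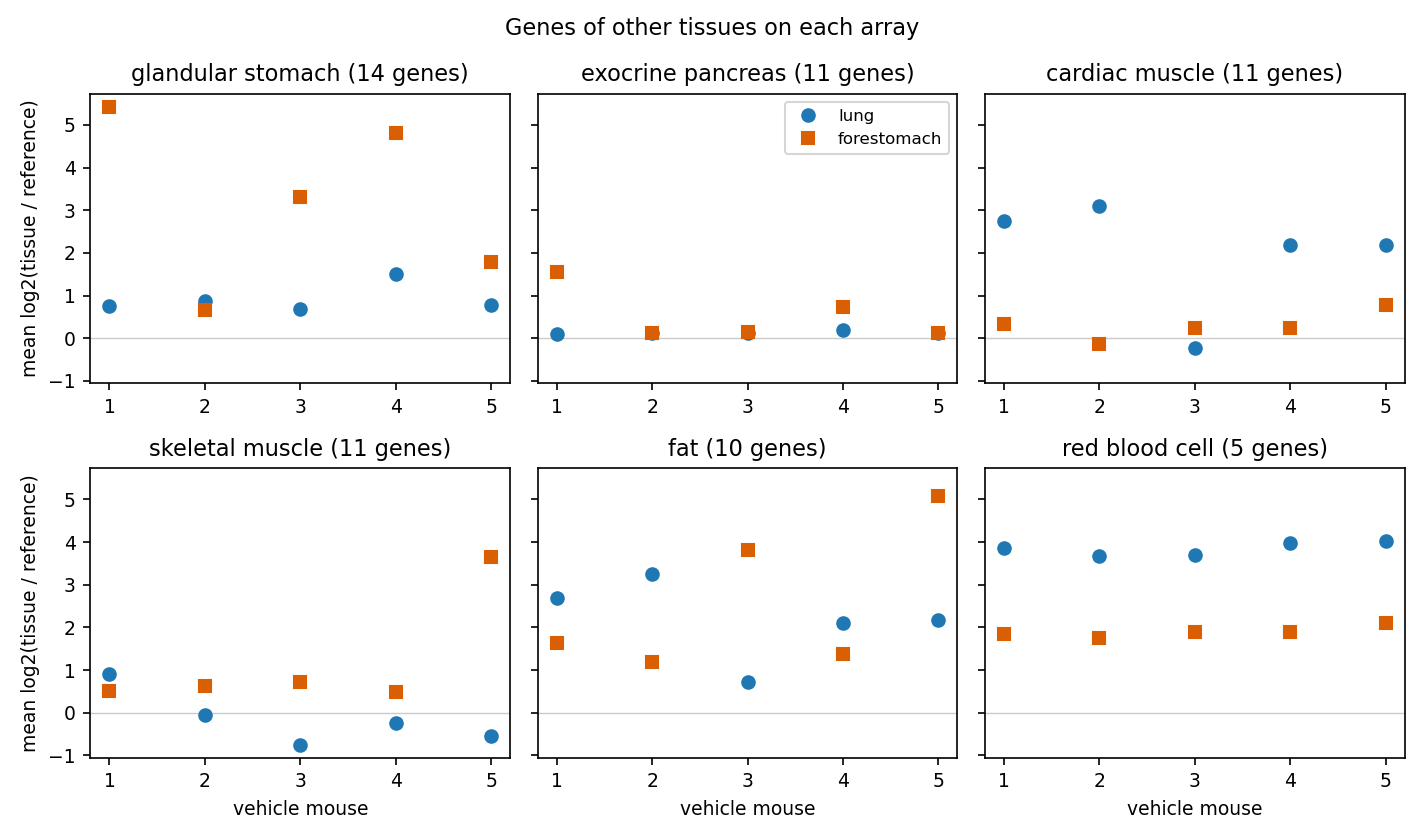
Mean log2(tissue/reference) over the genes of 6 other tissues or cells, for lung (circles) and forestomach (squares) of each vehicle mouse. Glandular stomach genes are highest in the forestomachs of mice 1 and 4 (5.43 and 4.81), heart muscle genes are low in the lung of mouse 3 (-0.22), and skeletal muscle genes are high in the forestomach of mouse 5 (3.66).

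When the forestomachs of mice 1 and 4 were left out, an alternative chosen after seeing the data, 4758 genes were higher in lung and 4204 in forestomach, of which 4384 and 3890 were also called with all arrays. The counts of the squamous lists were the same: 13 of 13 stratified keratins, 23 of 24 cornified envelope genes and 10 of 13 desmosome genes were higher in forestomach. In lung, 11 of 11 type II and 23 of 24 endothelial genes were higher, also as before. The glandular stomach list went from 8 to 5 genes higher in forestomach, with 1 higher in lung.

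The same tissue difference could be read in the other mice of the series, which had received the hydrocarbon at a low, middle or high dose (25, 50 or 100 mg/kg-bw/day). The treatment labels name benzo(b)fluoranthene, BbF in the titles, whereas the design text names benz(a)anthracene. These 3 doses are the ones that the study's methods give for benzo(b)fluoranthene, and those given for benz(a)anthracene differ. Of the 157 genes named by rule from the vehicle mice, 154, 156 and 154 kept their direction at these doses, and the lung and forestomach values did not overlap for 142, 146 and 147. These genes were chosen for no overlap in the vehicle mice. Of all 8821 genes called there, 99.4%, 99.6% and 99.3% had the same direction at the 3 doses and 83.9%, 84% and 88.8% did not overlap, against 31.3%, 30.3% and 34.3% of all genes. Ahrr lay the other way at all 3 doses, Mki67 and Pvalb at the low dose, and Cdkn1a and Zmat3 at the high dose. At the low dose, with 4 lung arrays, the lung of mouse 6 carried squamous genes: Krt4 was 5.73 there against at most -0.02 in the other 3, and Krt13 was 4.17 against at most -1.66. That lung was the highest of the 4 for 50 of 79 named forestomach genes. The Ada difference was -8.98, -6.99, -8.69 and -9.12 at the 4 doses, and that of Sftpc 7.06, 7.02, 7.13 and 7.18. Cyp1a1 ranged widely, from 2.06 to 8.39 in vehicle lung and from 5.99 to 9.38 in high-dose lung.

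**Figure D5:**
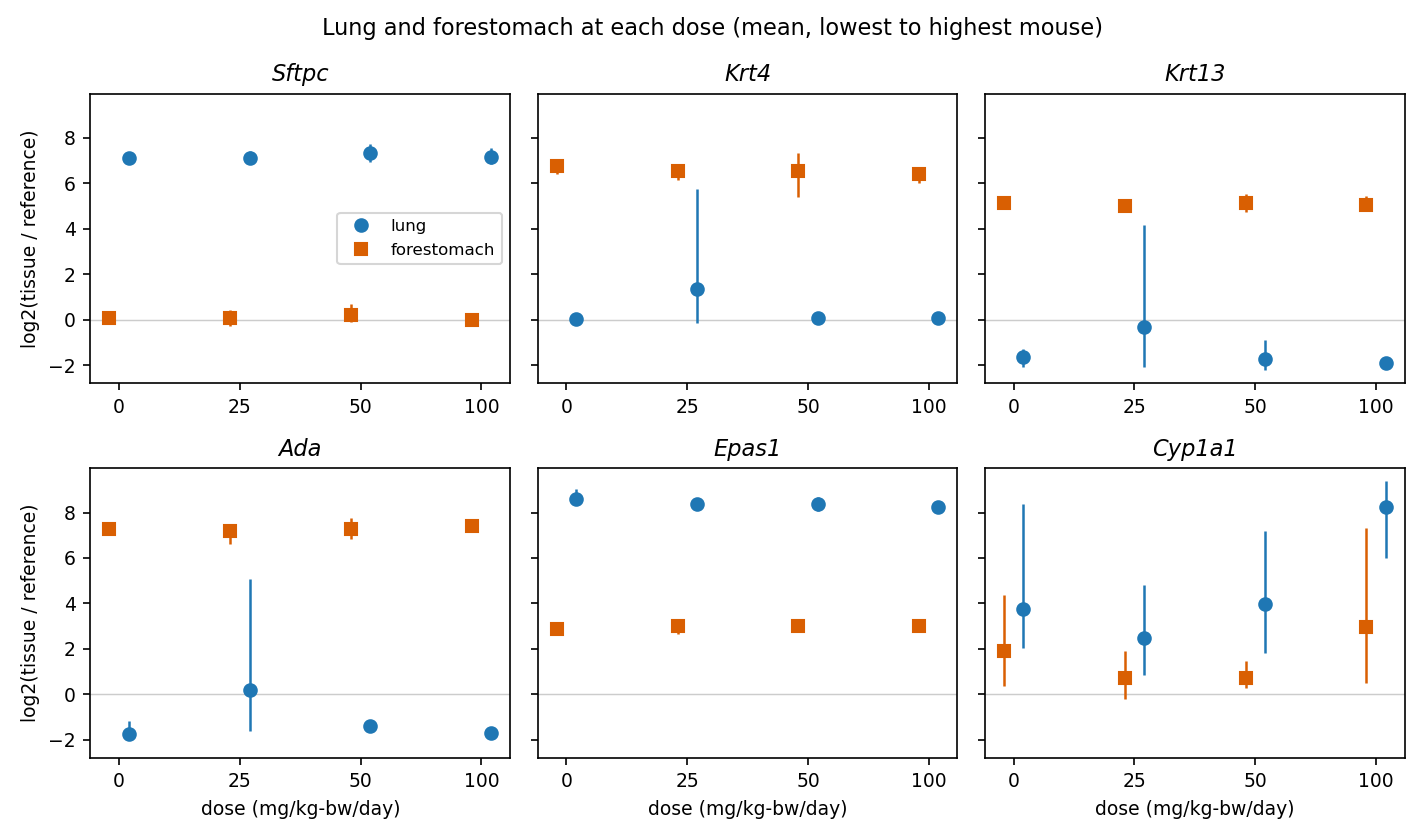
Mean (points) and lowest to highest mouse (lines) of log2(tissue/reference) in lung and forestomach against dose in mg/kg-bw/day (0, 25, 50, 100, evenly spaced), 5 mice a group except 4 low-dose lungs. Sftpc, Krt4, Krt13, Ada and Epas1 stay apart at every dose, the long low-dose lung line for Krt4, Krt13 and Ada is mouse 6, and the Cyp1a1 ranges overlap at 0, 25 and 100.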

How the data were processed

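Members are the 10 vehicle lung and forestomach arrays, grouped by their labels. The deposited scanner files, made by the authors with Agilent Feature Extraction 10.7.3.1 (per the file headers), hold median intensity in Cy5 and Cy3 for 59305 non-control spots. As in the study's methods, medians were used without background subtraction and normalized by loess within each array. Spots of a probe were averaged, giving log2 ratios for 55681 probes, with 119 missing values over the 10 arrays. The authors' deposited table of log2 ratios correlated with these at 0.997 to 0.998 (column medians -0.04 to -0.03) and served as an alternative. limma 3.58.1 (R 4.3.3) fitted tissue as the only term, with Benjamini-Hochberg adjustment. The fit was tested on simulated data. Through RefSeq, 26413 probes matched 20018 symbols; 29268 probes keep an accession and are unnamed here. A gene is its brightest probe, and 9728 genes had several. Of 545 listed genes in 35 lists, 532 were on the array.

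Genes were named by rule: among called genes with non-overlapping tissues, the 8 largest differences each way above background on all arrays, the 6 largest Cy5 bounds each way, up to 4 per list plus 1 against the majority, and the 3 markers, with 1 gene per paralog run described in full, 157 in all. Other list members in the text are named to account for a list's counts. The members and lists were chosen with earlier results of these data known. The number of arrays limits precision. Both tissues come from the same 5 mice, so mouse numbers pair them; deviations of the 2 tissues of a mouse correlated at -0.04 to 0.09. Alternatives were a mouse block, slide as random block, median centring, the Cy5 channel alone, normexp background correction, the authors' values, a filter on dim probes, all groups in the fit, any probe of a gene, and leaving out arrays. Promoter motifs were counted with Python and pandas 2.3.3.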

Additional observations from a re-analysis of the deposited data

Results flagged for a closer look

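In 22 of 314 groups of 5 values (157 named genes, 2 tissues), 1 mouse lay apart from the other 4 by Dixon's test, where chance gives about 1 in 20. The lung of mouse 4 was high for the squamous genes Ada (-1.17), Krt10 (0.31) and Krt1 (0.58) and for the mucin Muc5ac (1.48). The forestomach of mouse 5 was high for the skeletal muscle genes Acta1 (5.10), Myh2 (5.82), Tnni2 (5.601) and Pvalb (1.45), and for Ager (-0.14), which was at background there. The lung of mouse 1 was high for Tnni2 (1.71). The lung of mouse 3 was low for Myh6 (0.40) and Grhl1 (0.90). The lung of mouse 5 was high for Epas1 (9.04) and Ear2 (6.95) and low for Vip (-0.30), at background. The lung of mouse 2 was high for Ahrr (-0.14) and Cldn22 (0.87) and low for Cel (-0.0034). The forestomach of mouse 3 was high for Foxp2 (1.60) and Stmn2 (0.80). The forestomach of mouse 1 was low for Hoxc4 (0.80), and that of mouse 4 for Sftpb (-0.29), at background.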

How the results depend on the processing

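Under median centring in place of loess, 578 genes were at least 4-fold higher in lung, against 943, and 623 in forestomach, against 814; the cause was not tested. Median centring also took the share of lung among all calls from 52.7% to 45.5%. The other counts over all genes stayed within 1.5 times. Of the 70 counts by list and direction, 4 moved by more under median centring (P450 lung 5 to 3, repair lung 2 to 1, clock forestomach 2 to 1, proliferation lung 1 to 2), 3 with the Cy5 channel alone (glandular stomach forestomach 8 to 5, clock forestomach 2 to 1, lymphocyte forestomach 0 to 1), 1 with the mouse block (hepatocyte forestomach 3 to 5) and 4 without the forestomachs of mice 1 and 4 (simple keratins lung 1 to 4, glandular stomach forestomach 8 to 5 and lung 0 to 1, pancreas lung 0 to 1). The number of genes higher in vehicle lung at 1.5-fold ran from 4345 (all 12 groups in the fit) to 4839 (any probe of a gene), except for 3635 under median centring, and that of genes higher in vehicle forestomach from 3870 to 4483. Leaving out 1 array at a time gave 4568 to 4749 in lung and 4090 to 4273 in forestomach, and 912 to 993 and 790 to 846 at 4-fold. With the mouse as replicate block, 4672 and 4201 genes were called and 946 and 819 at 4-fold; of the named genes the block changed only the call of Pvalb (adjusted p 0.0504). With slide as a random block (correlation -0.04), 4660 and 4180 were called. No named gene reversed under any alternative run. Calls were lost for Bpifa1, Atp4a and Pvalb under several alternatives, for Pgc with the Cy5 channel alone, and for Ddb1 and Hbb-bt under median centring. Over the alternatives run, 616 list medians moved by less than the spread between replicates and 49 by more, most of these under median centring (16) and Cy5 alone (13). Under median centring the type II median went from 4.62 to 3.73 and that of stratified keratins from -4.71 to -3.02. The cornified envelope median went from -5.13 to -3.35 and that of proliferation genes from -0.91 to -0.95. The folds given as "at least" were computed after loess only. Genes not well above background have no firm size of difference, and 12813 of 37163 were not well above background on any of the 10 arrays.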

Other observations

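Genes called at 4-fold were also read in gene order along the chromosomes, chosen after their values were seen and given without a test. The longest run of neighboring measured genes all higher in forestomach held 19 genes, from Lce1a1 to Lce1m in the epidermal differentiation cluster, and the next held 9 kallikrein genes from Klk13 to Klk5. Kallikreins are serine proteases that shed cornified cells: Klk5 differed by -6.20 and was at least 73.4-fold higher in forestomach, and Klk11 by -5.61, while Klk14 differed by -0.60 and Klk1 (0.54) was not called. Serpin, interleukin-1 family, keratin, desmosomal cadherin and acid lipase genes formed runs of 4 or 5. The longest runs higher in lung held 3 genes, such as Ear1, Ear10 and Ear2. Neighbors in these runs are often paralogs whose probes may share signal.

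Of 3 further genes, picked after their values were seen and standing for no list, Elovl4, which makes very long fatty acids, differed by -8.59, Cers3, a ceramide synthase, by -6.16 (other probe -1.56), and Abca12, the lipid transporter of lamellar granules, by -5.99.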
